A study of Arabidopsis thaliana and Cucumis sativus and Glycine max with 60 samples.

Results

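The 79 cucumber (Cucumis sativus) genes described here are those whose transcript level was highest in the elongation zone of the root, the EZ. They were chosen by their measured values out of 21503 cucumber genes (0.367%). The level is in RPKM, the number of reads scaled to the length of the gene and to the depth of the library. A gene was a member when its EZ mean was at least 10 RPKM and its EZ mean plus 1 was at least 2.5 times both the mean plus 1 in the meristematic zone (MZ) and the mean plus 1 in the differentiation zone (DZ). Of the 9368 cucumber genes with an EZ mean of at least 10 RPKM, 0.843% met the rule.

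The study measured mRNA in root zones of 7 vascular plants, with 60 libraries in all. The 9 cucumber libraries came from primary root tips of seedlings of the cultivar Gy14, 4 days after plating. Seedlings were grown on MS medium set with agarose, at 21C in continuous light, and each tip was divided along its length into MZ, EZ and DZ with 3 libraries per zone, called biological replicates by the design text. The labels give no number of roots pooled in a library and no tie between the zones of a root.

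In a growing root, cells divide in the meristem at the tip, then stop dividing and lengthen several-fold in the elongation zone, and then take on their final forms, such as root hair cells and conducting cells, in the differentiation zone. Elongation is driven by water uptake into the vacuole and by loosening of the cell wall while new wall material is laid down. A transcript that is high in the EZ and low on either side is therefore one whose level is highest during the passage between division and maturity. A dissected zone holds many cell types, so fewer cells of a type and less RNA per cell cannot be told apart in these bulk libraries.

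The members carry identifiers of the form Cucsa followed by a number. The sources used here pair none of them with a gene name, so no role is given for any of them and no sequence is shown. The only check of the zone labels that the values allowed was the likeness of libraries. It can show that libraries group by label, but not which zone a label names. Across all genes tested, libraries of the same zone correlated at Pearson r of 0.966 to 0.983 in log2(RPKM + 1), against 0.648 to 0.914 between zones (9 libraries of 1 genotype, described across genes, which are not independent). On the line from the MZ mean (0) to the DZ mean (1) over all genes tested, EZ replicate 1 lay at 0.655, EZ replicate 2 at 0.473 and EZ replicate 3 at 0.481. EZ replicate 1 thus stood nearer to the DZ than the other EZ libraries did. The low RPKM values of most genes were whole multiples of what 1 read is worth, and this gave about 23000000 to 31800000 reads per library, with the deepest library 1.38 times as deep as the shallowest. The scale was set so that gene lengths come out whole, and 9904 of 9948 implied lengths between 300 and 2000 bases (99.6%) then lay within 0.05 of a whole number.

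The EZ levels of the members spanned more than 2 orders of magnitude. The lowest EZ mean was 10.9 RPKM, the median 34.8 RPKM and the highest 3235 RPKM. Means of at least 20 RPKM were found for 56 members, at least 50 RPKM for 27 and at least 100 RPKM for 13. In the flanking zones the members' median of the zone mean was 7.30 RPKM in the DZ (range 0.432 to 852) and 6.17 RPKM in the MZ (range 0.497 to 598). Among all genes tested, the corresponding medians were 12.1 RPKM in the MZ, 12.6 RPKM in the EZ and 13.7 RPKM in the DZ. The members were thus below the typical gene in the MZ and DZ and above it in the EZ, which the rule itself favours. No member was silent outside the EZ: in none were all MZ and DZ libraries under 1 RPKM, and 2 members were listed at 0 in a single library each.

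**Figure D1:**
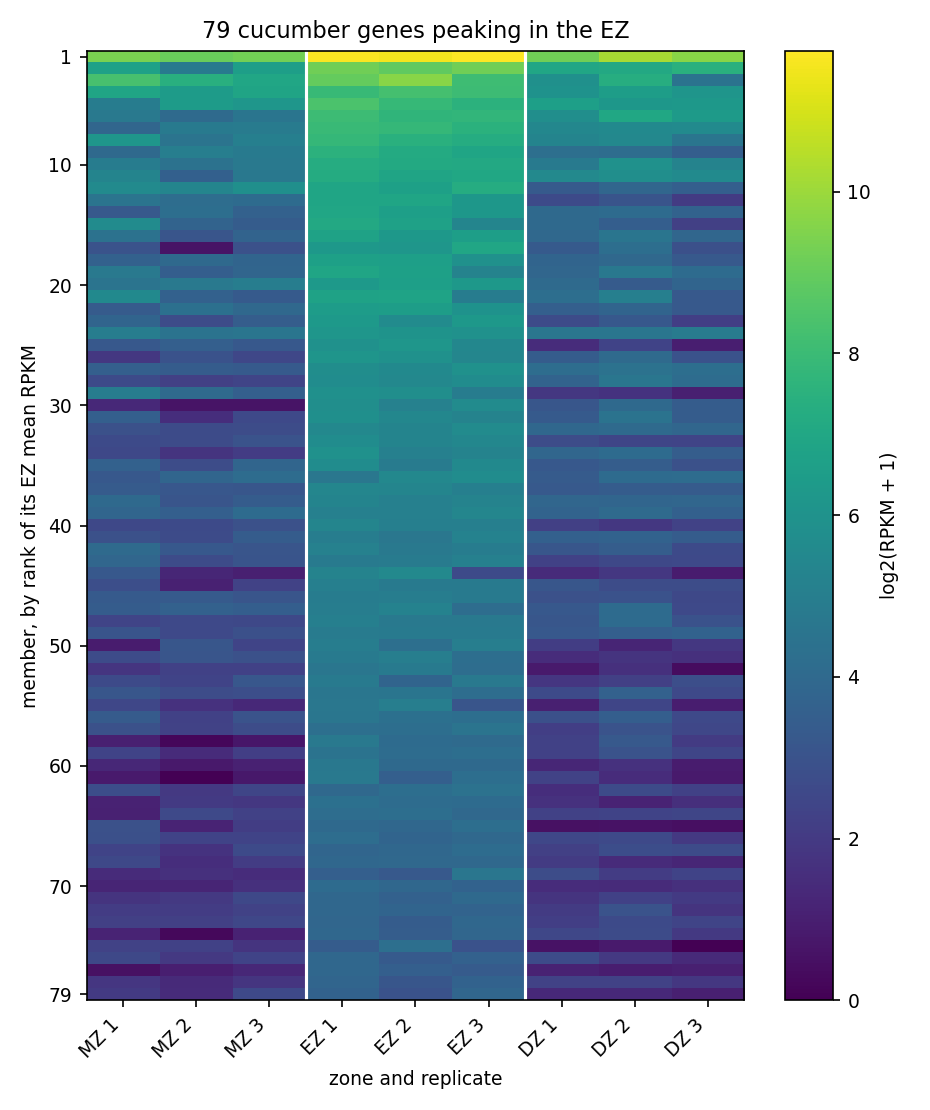
Heat map of the 79 members (rows, ordered by EZ mean RPKM, highest at the top) in the 9 cucumber libraries (columns, grouped by zone and replicate), with colour giving log2(RPKM + 1). The EZ columns are the lightest in nearly every row, and the top row, at an EZ mean of 3235 RPKM, stands far above the median member at 34.8 RPKM.

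The EZ mean plus 1 was 3.31 times that of the next highest zone in the median member, and the range was 2.51 to 7.78. This ratio was at least 3 in 49 members, at least 4 in 25 and at least 5 in 20, and no member reached 8. The added 1 RPKM lowers the ratio most where the flanks are low. The member at 7.78 had an EZ mean of 18.4 RPKM, against 1.49 RPKM in the DZ. The next highest zone was the DZ in 41 members and the MZ in 38. Set against each flank, the EZ was 4.75 times the MZ in the median member (range 2.51 to 25.2) and 4.03 times the DZ (range 2.51 to 17.9), with 1 RPKM added to each mean. The EZ peak of these genes was thus one of degree above the higher of its neighbours. The lower neighbour was under 1 RPKM in some members. The lowest zone mean was 0.497 RPKM in the MZ and 0.432 RPKM in the DZ. These ratios were used to choose the members and carry no test.

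Cucsa.338940 had the highest EZ level, with 3276, 3000 and 3428 RPKM in the 3 EZ libraries. It had 659, 532 and 604 RPKM in the MZ and 586, 1170 and 799 RPKM in the DZ. All EZ libraries lay far above all others, and DZ replicate 2 was the highest library outside the EZ. The EZ mean of Cucsa.338940 was 3235 ± 217 RPKM, against 598 ± 63.5 RPKM in the MZ and 852 ± 296 RPKM in the DZ (SD, n = 3 each). This gene alone was thus several times as abundant as the second, Cucsa.166320.

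Cucsa.166320 had 585, 469 and 578 RPKM in the EZ. It had 106, 26.4 and 93.8 RPKM in the MZ and 123, 136 and 175 RPKM in the DZ. MZ replicate 2 was well below the other MZ libraries, and the EZ libraries did not overlap with either flank. The means of Cucsa.166320 were 544 ± 65.1 RPKM in the EZ, 75.4 ± 42.8 RPKM in the MZ and 145 ± 26.8 RPKM in the DZ (SD, n = 3 each).

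Summed over the 79 members, the EZ libraries had 9120, 8421 and 7992 RPKM. The MZ libraries had 2083, 1485 and 1696 RPKM and the DZ libraries 1627, 2609 and 1814 RPKM. These sums are 0.886 to 1.03% of all cucumber RPKM in the EZ libraries, 0.150 to 0.222% in the MZ libraries and 0.187 to 0.291% in the DZ libraries. The members were thus a small share of the transcript pool even where they peaked, and Cucsa.338940 made up more of the EZ sum than any other member.

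At the threshold on the EZ mean, the 2 members just inside had means of 10.9 RPKM, at 2.80 and 2.60 times the next zone. The 2 genes just outside had 9.98 and 9.87 RPKM, at 2.51 and 2.93 times. At the threshold on the ratio, the 2 members just inside were both at 2.51 times, and the 2 genes just outside were at 2.47 and 2.45 times. Membership at these edges turned on differences far smaller than the spread between libraries.

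In 75 of the 79 members every EZ library was above every MZ and every DZ library. The same was true of 8.75% of all genes tested, a comparison that the rule had used and from which nothing is read. In each of the other 4 members, MZ replicate 1 passed EZ replicate 3. The member ranked 3 by EZ mean was one of them, with 501, 802 and 269 RPKM in the EZ, against 323, 171 and 123 RPKM in the MZ and 58.0, 159 and 21.4 RPKM in the DZ. The clearest of the 4, ranked 44, had 37.0, 45.3 and 5.17 RPKM in the EZ, against 8.33, 1.37 and 1.03 RPKM in the MZ. Its EZ replicate 3 was below MZ replicate 1, while its other EZ libraries were far above.

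A second reading of the peak came from choosing the genes with the same rule on the libraries of 2 replicate numbers only, and then looking at the libraries of the number that had been left out, 1 per zone. With number 1 left out, 73 genes were chosen, 62 of them members. In the 3 libraries left out, 48 of the 73 were again at least 2.5 times both flanks, which 0.791% of all genes tested were, and 72 were highest in the EZ, against 20.8% of all genes tested. With number 2 left out, 45 of 92 chosen genes passed the 2.5 times mark in the libraries left out, against 0.521% of all genes, and 90 were highest in the EZ, against 18.6%. With number 3 left out, 56 of 72 passed, against 0.611%, and 71 were highest in the EZ, against 19.5%.

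In each of the 3 choices all but 1 or 2 of the chosen genes were thus highest in the EZ of libraries that had no part in choosing them. Of the genes chosen, 70 were members when number 2 was left out and 65 when number 3 was. The median ratio of the EZ to the next zone in the libraries left out was 3.81, 2.49 and 3.36 for numbers 1, 2 and 3, and in the libraries that chose the genes it was 3.35, 3.18 and 3.57. The peak was smaller in the libraries left out than in the choosing ones for numbers 2 and 3, and larger for number 1. With 1 library per zone these values carry no test. The 4 genes that were not highest in the EZ were no members. The members were chosen on all 9 libraries, these among them, so this was nearly set in advance. The lowest of the 4 genes was listed at 0 RPKM in EZ replicate 3 and DZ replicate 3, against 57.9 RPKM in MZ replicate 3.

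**Figure D2:**
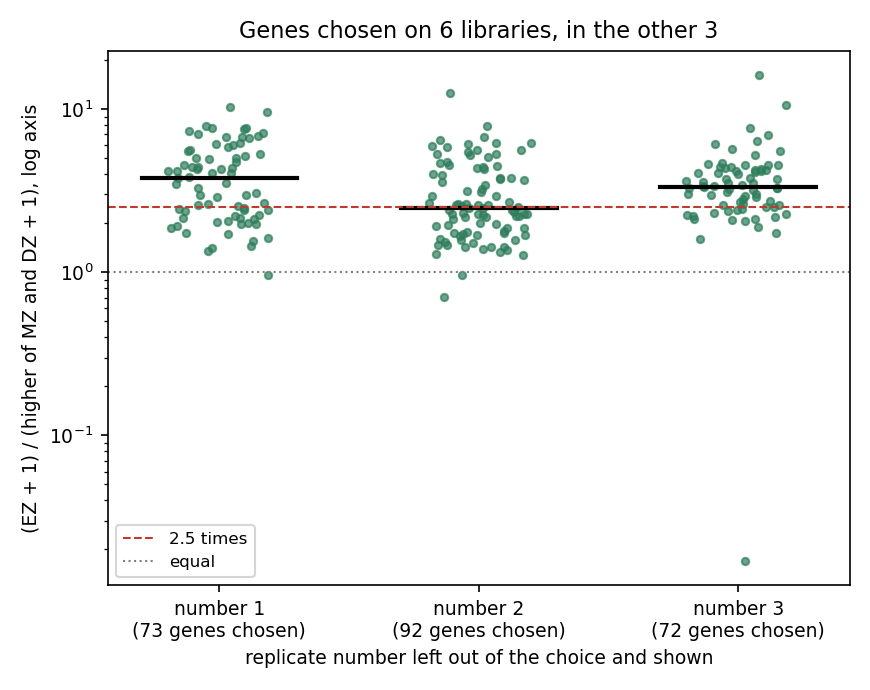
Ratio of the EZ to the higher of MZ and DZ (RPKM + 1, log axis) in the 3 libraries of a replicate number that was left out when the genes were chosen; each point is 1 gene and the black bar the median. Medians stand at 3.81, 2.49 and 3.36, and 1, 2 and 1 genes fall below the dotted line of equal levels.

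The rule treats the MZ and the DZ alike, so it does not set on which side of the EZ a member is higher. This was tested on log2(RPKM + 1) with limma over the 16693 genes that reached 1 RPKM in 3 or more of the 9 libraries. A gene was called at a Benjamini-Hochberg adjusted p under 0.05 with at least a 2-fold difference. All 79 members passed the filter, 1 of them only through the EZ. In the DZ, 12 members were higher than in the MZ and 10 were lower. Of all genes tested, 25.7% were called higher and 22.0% lower, against 15.2% and 12.7% of the members. The difference between these shares was not tested. With quantile normalization, which moved the median of all genes by -0.22 on the log2 scale, 6 members were higher and 11 lower, and higher calls made up 43.1% of all calls, against 53.8% with the values as deposited.

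The median log2 difference of DZ minus MZ was 0.06 over the members and -0.01 over all genes tested, and the members' range was -2.61 to 2.66. Positive values were found for 42 members. Another 10 members had an adjusted p under 0.05 in limma with less than a 2-fold difference, and 3 were past 2-fold without passing on p. These counts of 42, 10 and 3 members were not made over all genes tested, and nothing is read from them. In 16 members every DZ library was above every MZ library (39.5% of all genes tested), and in 13 every DZ library was below (40.8%). Among the called members, the zones did not overlap in 10 of the 12 higher and in 9 of the 10 lower. The calls were made on the same libraries and favour such a gap, so this count adds nothing to them.

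**Figure D3:**
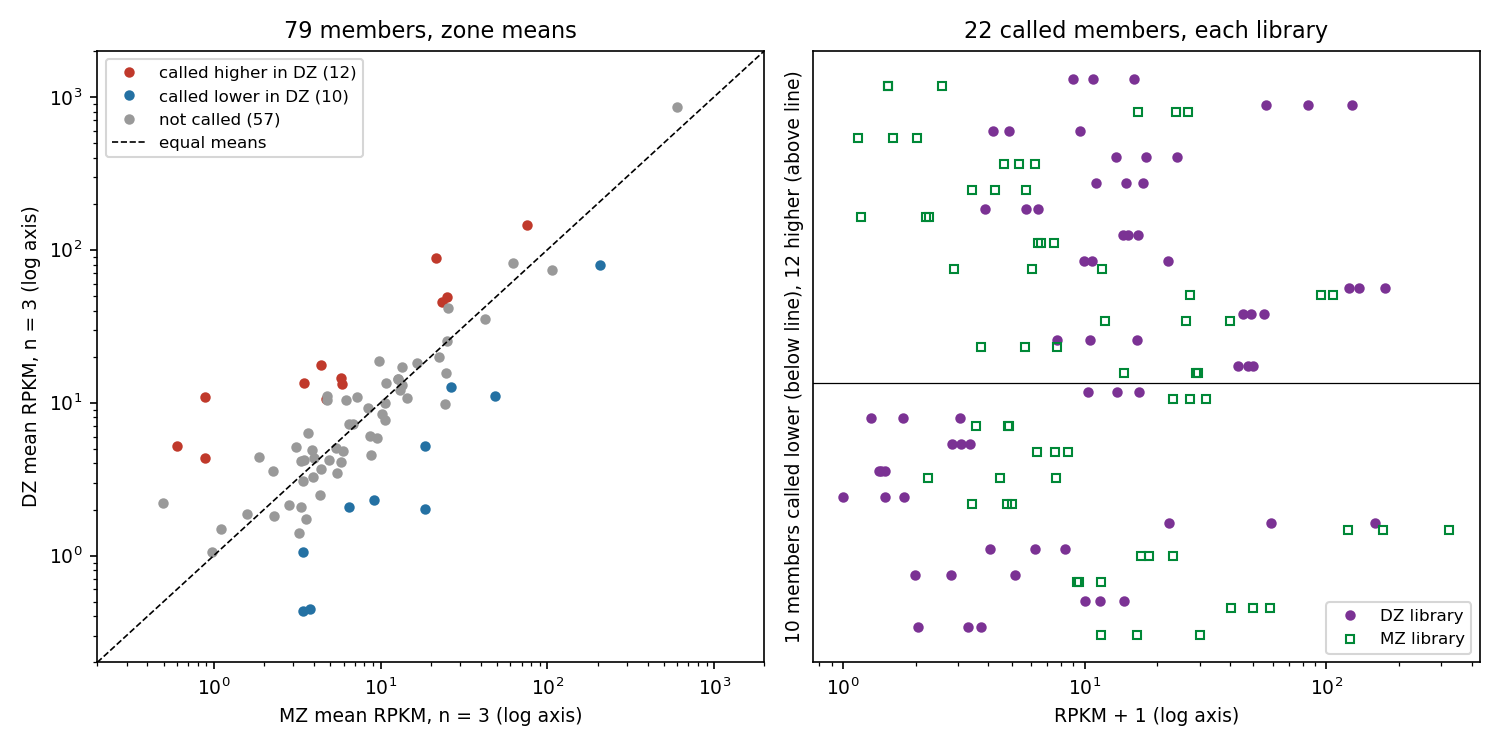
Left, DZ mean against MZ mean of the 79 members in RPKM (log axes, n = 3 each), with the 12 called higher in the DZ in red and the 10 called lower in blue. Right, the 3 DZ libraries (filled) and 3 MZ libraries (open) of each called member on a log axis of RPKM + 1, ordered by log2 difference. In 10 of the 12 rows above the line and 9 of the 10 below it the zones do not overlap, which the call itself favours.

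The 12 members called higher in the DZ had a median of zone means of 13.9 RPKM in the DZ and 5.27 RPKM in the MZ, and 47.8 RPKM in the EZ. The greatest rise was that of Cucsa.122790, which had 7.95, 15.0 and 9.80 RPKM in the DZ, against 1.58, 0.532 and 0.534 RPKM in the MZ. Every DZ library was well above every MZ library. The means were 10.9 ± 3.64 RPKM in the DZ and 0.881 ± 0.603 RPKM in the MZ (SD, n = 3 each), and the log2 difference was 2.66 ± 0.28 (SE, limma adjusted p = 1.9e-05). The MZ values rest on 44, 15 and 18 reads. In the EZ, Cucsa.122790 had 54.1, 35.3 and 49.6 RPKM, and its EZ to MZ ratio of 25.2 was the highest of all members.

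Cucsa.086060 had 55.2, 127 and 83.3 RPKM in the DZ, against 25.9, 15.7 and 22.9 RPKM in the MZ. The zones did not overlap, and DZ replicate 2 was the highest of the 6 libraries. Its means were 88.4 ± 36.1 RPKM in the DZ and 21.5 ± 5.23 RPKM in the MZ (SD, n = 3 each), a log2 difference of 1.94 ± 0.29 (SE, limma adjusted p = 0.000184). In the EZ it had 265, 204 and 211 RPKM.

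Cucsa.166320, second by EZ level, was also among the 12, with a log2 difference of 1.14 ± 0.44 (SE, limma adjusted p = 0.0391). Its DZ libraries were all above its MZ libraries, but the call was kept in only 2 of the 9 fits that each left out 1 library.

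The 10 members called lower in the DZ had a median of zone means of 2.20 RPKM in the DZ and 13.8 RPKM in the MZ, and 53.1 RPKM in the EZ. Cucsa.205350 fell furthest, to 2.74, 2.30 and 1.05 RPKM in the DZ, against 29.2, 15.4 and 10.7 RPKM in the MZ. No DZ library came near an MZ library, and the MZ libraries themselves differed nearly 3-fold. The means were 2.03 ± 0.879 RPKM in the DZ and 18.4 ± 9.62 RPKM in the MZ (SD, n = 3 each), a log2 difference of -2.61 ± 0.39 (SE, limma adjusted p = 0.000198). Cucsa.205350 was also the member with the lowest ratio inside the rule, and its EZ replicate 3, at 29.7 RPKM, barely passed MZ replicate 1.

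Cucsa.361150 had 9.01, 13.6 and 10.6 RPKM in the DZ, against 48.9, 39.4 and 57.4 RPKM in the MZ. The zones were far apart and each was narrow. The means were 11.1 ± 2.32 RPKM in the DZ and 48.6 ± 9.01 RPKM in the MZ (SD, n = 3 each), a log2 difference of -2.04 ± 0.20 (SE, limma adjusted p = 1.25e-05). In the EZ this gene had 120, 100.2 and 151 RPKM, 2.52 times its MZ level with 1 RPKM added to each mean.

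The calls of 7 of the 12 higher and 7 of the 10 lower members were kept in all 9 fits that left out 1 library. No call turned direction in any of the alternatives run. None could do so without 1 EZ library, with no filter, with a replicate block or with plain empirical Bayes. The log2 differences in those fits are the same as in the main fit. Without DZ replicate 2 the count of higher members was 8, against 12 with all libraries, 7 of them among the 12. The member ranked 3 by EZ mean was called lower at a log2 difference of -1.67 (limma adjusted p = 0.0487), and kept that call in 2 of the 9. The other 57 members, not called, had a median of zone means of 6.37 RPKM in the DZ and 6.17 RPKM in the MZ. A missed threshold does not show that these members were equal in the DZ and the MZ.

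The spread between libraries of a zone was wide in the members, and widest on the flanks. The coefficient of variation (SD over mean, n = 3) of the median member was 35.0% in the MZ, 18.9% in the EZ and 29.8% in the DZ. In the other genes with an EZ mean of at least 10 RPKM it was 11.02% in the MZ, 12.4% in the EZ and 9.12% in the DZ. The highest library was more than 2 times the lowest in 42 of 79 members in the MZ (53.2%, against 7.20% of the other genes), in 12 in the EZ (15.2%, against 7.18%) and in 29 in the DZ (36.7%, against 4.06%). Members were lower than most genes in the flanks, where fewer reads were counted, and the part of the level in this spread was not tested.

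The same libraries tended to be high or low across members. MZ replicate 1 was the highest MZ library in 46 members (58.2%, against 36.7% of all genes tested), and MZ replicate 2 the lowest in 44 (55.7%, against 41.2%). In the EZ, replicate 1 was the highest in 45 (57.0%, against 36.8%) and replicate 3 the lowest in 40 (50.6%, against 24.3%). In the DZ, replicate 2 was the highest in 52 (65.8%, against 28.7%) and replicate 3 the lowest in 42 (53.2%, against 38.7%). In each zone, the library that was most often the highest was so in more than 50% of the members, and likewise the one most often the lowest.

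A pair of patterns of single libraries, singled out after the values were seen, covered 16 members. In 11 members, Cucsa.166320 among them, MZ replicate 2 was below 50% of both other MZ libraries (13.9%, against 1.52% of the other genes with an EZ mean of at least 10 RPKM). The MZ reads behind the 11 differed widely, with 5094, 1286 and 5462 for Cucsa.166320 but 3, 0 and 3 for the member ranked 61. The other genes were not matched to the members by MZ level. In 5 members EZ replicate 3 was below 50% of both other EZ libraries (6.33%, against 1.51%). In 4 of these 5, MZ replicate 1 was also more than 2 times both other MZ libraries, as it was in 7 of the 79 members. The member ranked 15 showed this, with 134, 106 and 39.5 RPKM in the EZ, against 50.3, 12.5 and 9.81 RPKM in the MZ and 15.1, 10.5 and 3.74 RPKM in the DZ. On the line from the MZ mean (0) to the DZ mean (1), EZ replicate 3 lay at 0.706 over the 79 members, against 0.466 for EZ replicate 2 and 0.631 for EZ replicate 1, while over all genes tested it lay at 0.481, close to EZ replicate 2 at 0.473. The rule had used the members' EZ values, so their places on this line are a description and nothing is read from them.

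**Figure D4:**
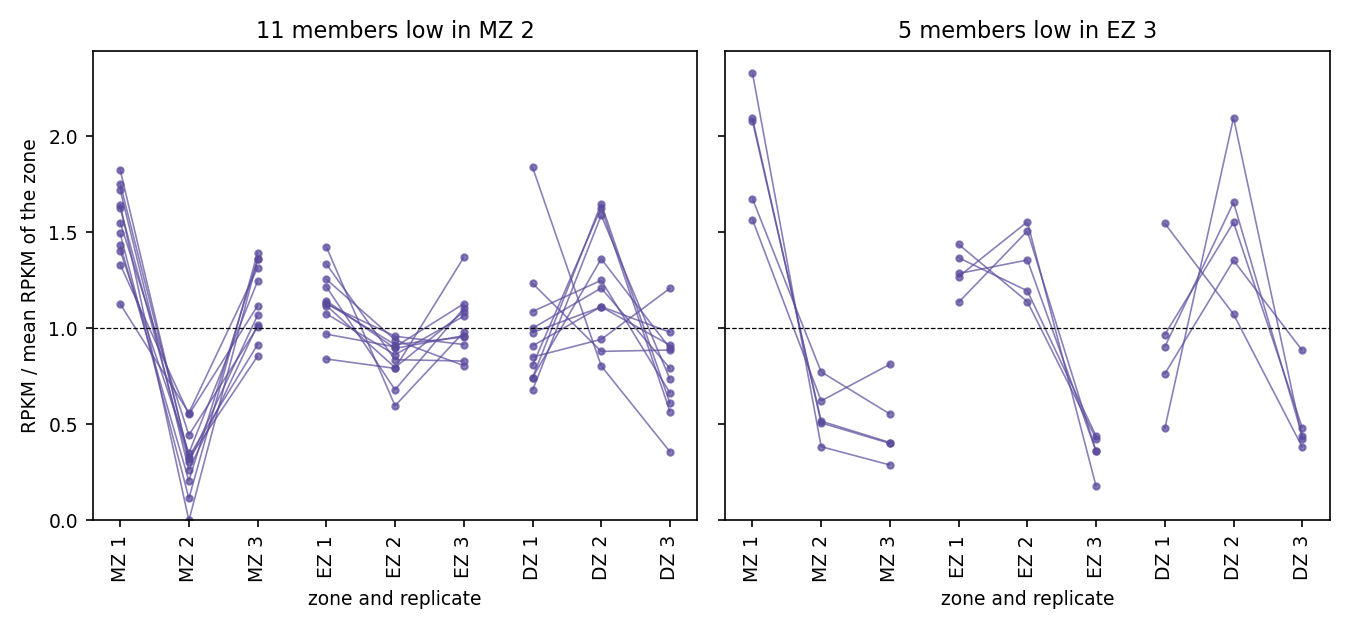
RPKM of each library divided by the mean of its zone (1 is the zone mean, dashed), for the 11 members low in MZ replicate 2 (left) and the 5 members low in EZ replicate 3 (right); each line is 1 member in 1 zone. On the right, MZ replicate 1 stands above the zone mean in all 5, and DZ replicate 3 is below it in all 5.

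Some members stood side by side in the numbering. Of the 79, 10 (12.7%) had another member in the next or previous row of the table. The same rule applied to the MZ gave 583 genes, of which 11.3% had such a neighbour, and applied to the DZ it gave 1161 genes, of which 18.3% did. Within 5 rows, 12.7% of the EZ set had another member of its set, against 27.4% of the MZ set and 47.9% of the DZ set. The sets differ in size, and no test was made. A larger set has more such neighbours by its size alone, so these shares do not rank the sets. Whether neighbours in number are neighbours on the chromosome, or copies of one another that could share reads, is not known from the files.

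The 10 members made 3 runs, named here after their values were seen. The longest held 5 members in 7 consecutive rows from Cucsa.349020. Its members had EZ means of 58.5 ± 15.0, 104 ± 25.6, 26.8 ± 6.95, 86.7 ± 22.3 and 97.1 ± 24.4 RPKM in order of number (SD, n = 3 each), at 5.19 to 6.39 times the next zone. All 5 ratios lay above the upper quartile of the members, 5.08. Of the rows between them, the first had 64.3, 74.7 and 52.6 RPKM in the EZ, against 23.6, 41.9 and 28.98 RPKM in the MZ and 3.27, 2.84 and 1.47 RPKM in the DZ. At 1.997 times its MZ level it was outside the rule. The other row between them was listed at 0 in all 9 libraries. For the members in places 5 and 7, no whole read numbers fitted the RPKM values, and whether reads were divided between genes of the run was not tested.

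Members of the longest run differed on the flanks. The first 2, Cucsa.349020 and its neighbour, were called lower in the DZ than in the MZ, with log2 differences of -1.72 and -1.70 (limma adjusted p = 0.000845 and 0.00031). Cucsa.349020 had 1.81, 4.15 and 0.991 RPKM in the DZ, against 8.27, 10.7 and 8.52 RPKM in the MZ. The last 2 in the run had DZ means of 12.1 ± 3.08 and 14.3 ± 2.21 RPKM, against MZ means of 13.1 ± 1.86 and 12.8 ± 4.73 RPKM (SD, n = 3 each), and were not called.

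The second run, from Cucsa.097780, held 3 members with EZ means of 80.8 ± 16.8, 151 ± 34.8 and 25.2 ± 6.72 RPKM (SD, n = 3 each). Its last member was called lower in the DZ, at 2.09 ± 0.277 RPKM, against 6.49 ± 1.08 RPKM in the MZ (SD, n = 3 each; log2 difference -1.27, limma adjusted p = 0.000288). The third run, from Cucsa.148670, held 2 members with EZ means of 14.04 ± 2.08 and 34.8 ± 3.99 RPKM (SD, n = 3 each), and neither was called.

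**Figure D5:**
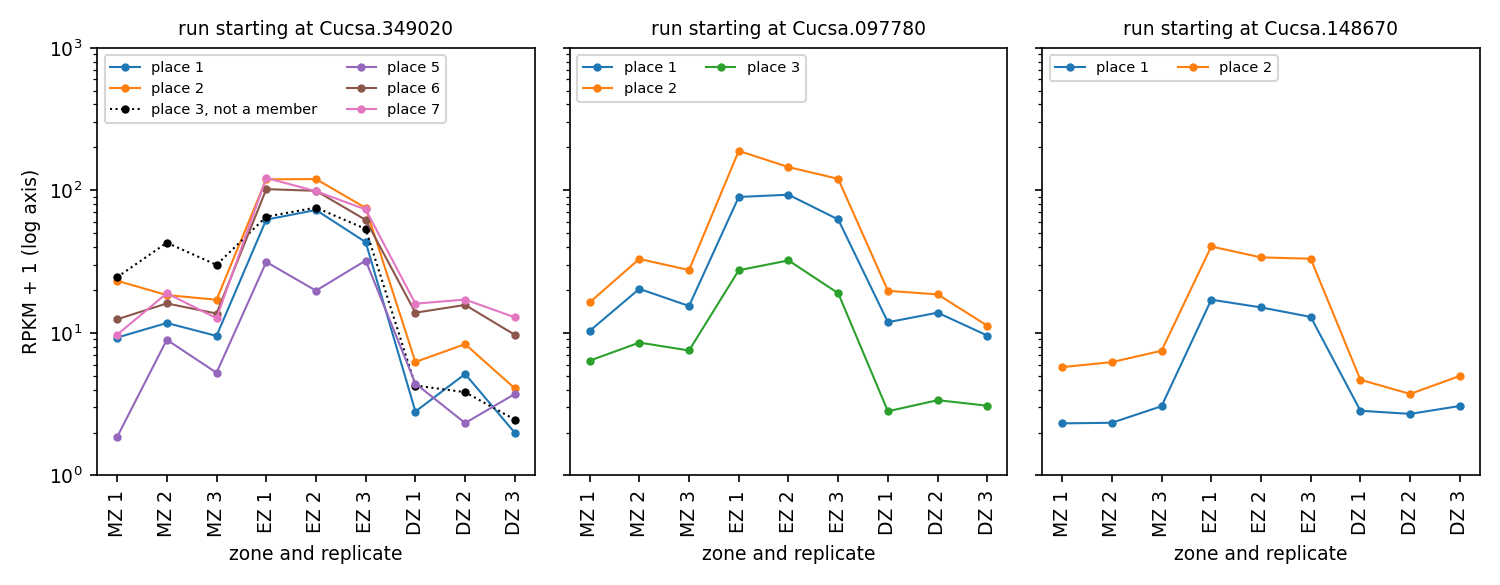
RPKM + 1 (log axis) in the 9 libraries for the members of the 3 runs of neighbouring identifiers; each line is 1 gene, by its place in the run, and the dotted line is a gene of the first run outside the rule. All 10 members peak in the EZ libraries, and in the first run the lines part in the DZ, where places 1 and 2 are below places 6 and 7.

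The depth behind the members was uneven. Whole read numbers could be worked back from the RPKM values for 68 of the 79 members, and for 14011 of 19366 cucumber genes above 0 in at least 3 libraries (72.3%). Over these 68, a value rested on a median of 231.5 reads, with a range of 0 to 36461. The lowest of a member's MZ and DZ libraries had a median of 62 reads, and 13 of the 68 had under 20 reads in some library. Counting error is largest, among the 68, in those libraries, and the 11 members without whole read numbers were not counted.

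One member, ranked 36, had under 20 reads in an EZ library. It had 24.2, 44.3 and 51.3 RPKM in the EZ from 16, 29 and 40 reads. In the MZ it had 8.40, 13.3 and 16.7 RPKM from 5, 8 and 12 reads, and in the DZ 9.39, 16.4 and 17.0 RPKM from 6, 12 and 14 reads. Its implied length was only 25.8 bases, so that a single read in MZ replicate 1 was worth 1.68 RPKM, against a median of 0.0468 RPKM over the 68 members. These are the smallest read numbers that fit its values. The implied length is not a whole number, which it was for 63 of the 68 members, so the read numbers of this member are less certain than those of most. The median implied length of the members was 927 bases, against 1087 bases for the 5421 other genes with an EZ mean of at least 10 RPKM and whole reads. The 5 of the 68 members under 200 bases were the same 5 whose implied length was not whole, and the members ranked 3 and 15 by EZ mean were among them.

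The same rule was applied to the other species with 3 zones. Against the 79 EZ-peaking genes of cucumber (0.843% of genes with an EZ mean of at least 10 RPKM), it gave 288 in tomato (2.85%), 180 in maize (1.71%), 460 in Arabidopsis (4.30%), 82 in soybean (0.801%) and 22 in rice (0.241%). Within cucumber, 583 genes peaked in the MZ and 1161 in the DZ, so that EZ peaks were 4.33% of all peaks. This share was 7.82% in tomato, 5.37% in maize, 9.998% in Arabidopsis, 5.58% in soybean and 1.01% in rice. Cucumber thus had fewer EZ-peaking genes than MZ-peaking or DZ-peaking genes, and so did each of the other 5 species. Every EZ library was above every MZ and DZ library in 94.9% of the cucumber members, against 96.9% in tomato, 79.4% in maize, 71.3% in Arabidopsis, 29.3% in soybean and 59.1% in rice. The rule had used that comparison, and its share among all genes was taken in cucumber only, so nothing is read from these percentages. Each species has its own annotation, and no test was made between species. Tomato roots were also taken at a later age than those of the other 5 species, which were all at 4 days.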

How the data were processed

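The authors deposited 1 RPKM value per gene and library, and the 9 cucumber columns were matched to their libraries by name, zone and number. The tools named, per the submitters' processing notes, were FastQC and TopHat2; per the labels, the annotation came from Phytozome. No source used here gives the read counter, the gene lengths or the filters. A second deposited table, of 2 zones, was not used.

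Zone means, ratios and coefficients of variation were computed in Python 3.11.15 (NumPy 2.4.6, pandas 2.3.3, matplotlib 3.10.9). DZ against MZ was fitted on log2(RPKM + 1) in R 4.3.3 with limma 3.58.1, with 1 fit for the 3 zones, trend and robust settings, a two-sided moderated test and Benjamini-Hochberg adjustment over 16693 genes that reached 1 RPKM in 3 or more libraries. Fold changes on the log2(RPKM + 1) scale understate the change of low genes. The script was tested on simulated data. The p-values rest on 1 spread per gene, shared by the 3 libraries of each of the 3 zones and moderated over genes. The members' median coefficient of variation was 18.9% in the EZ, against 35.0% in the MZ and 29.8% in the DZ. Sharing the EZ spread can therefore make the p-values of DZ against MZ too small for members. Reads were worked back where all of a gene's values were whole multiples of 1 read, within a tolerance of 0.02 reads that widened to at most 0.12.

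Members and lists were chosen with earlier results of these data known. Identified by number were the 2 members with the highest EZ mean and the 2 with the largest called rise and fall of DZ against MZ; other identifiers were named after their values were seen. Alternatives were each library left out, other pseudocounts (0.1 and 5), no filter, quantile normalization, a replicate block, plain empirical Bayes, and other thresholds of the rule.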

Additional observations from a re-analysis of the deposited data

How the results depend on the processing

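The choice of members turned on the ratio asked for: 150 genes passed at 2 times and 25 at 4 times, against 79 at 2.5 times. Leaving out 1 library gave 69 to 93 members. The count was 69 without MZ replicate 2 or DZ replicate 1, and 93 without DZ replicate 2. It was 74 without EZ replicate 1, the EZ library nearest to the DZ over all genes tested. Among the same 79 members, 75 to 79 then had all EZ libraries above all others. Leaving out a library cannot lower that number, so nothing is read from it. For DZ against MZ, a pseudocount of 5 left 5 members higher and 4 lower, and 2358 genes lower in all; quantile normalization left 6 members higher. With 1 library left out, 8 to 12 members were higher, 8 to 10 lower, 3849 to 4330 genes higher in all and 3535 to 3837 lower in all. The log2 differences then ran from 2.43 to 2.91 for Cucsa.122790, 1.64 to 2.23 for Cucsa.086060, -2.92 to -2.24 for Cucsa.205350 and -2.18 to -1.91 for Cucsa.361150, and these 4 calls were kept in all 15 alternatives. On pairing, same-numbered libraries had deviations over all genes tested that correlated at 0.259 to 0.346 between MZ and EZ, 0.071 to 0.2945 between EZ and DZ, and 0.019 to 0.165 between DZ and MZ, the zones compared. Not every pair was above 0.1 and the labels tie no zones of a root, so the fit without the block was kept. However, 17 of 18 comparisons of a library with another zone were highest at its own number, a hint of pairing from the data. Over the 79 members, same-numbered libraries correlated at -0.034, -0.202 and 0.536 between DZ and MZ for replicates 1, 2 and 3. In that order the values were 0.254, 0.186 and 0.703 between MZ and EZ, and 0.322, 0.425 and 0.524 between EZ and DZ. With the replicate block, 12 members were higher, 11 of them also called without it, and 11 lower, 10 of them also called without it, and 4295 genes were higher and 3690 lower in all. Counting error weighs most on the libraries with under 20 reads, found in 13 members.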
